A study of Mus musculus with 4 samples.

Results

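The GIMAP genes (GTPases of immunity-associated proteins) form a family of small GTP-binding proteins of lymphocytes, and in the mouse they lie side by side on chromosome 6. The 8 genes described here, Gimap1, Gimap3, Gimap4, Gimap5, Gimap6, Gimap7, Gimap8 and Gimap9, were taken by name from the 55487 gene IDs of the count table, and all 8 were among the 19194 genes that passed the filter on low counts. The family was chosen by its fold changes in the comparison reported below, between FK866-treated and control libraries. Those fold changes are therefore given as a description, without p-values for the members. Members are counted as called where they passed the threshold used for all genes. These counts, in every setting, are fixed in part by how the family was chosen and are descriptions too. RNA sequencing had been done on group 2 innate lymphoid cells (ILC2s), lymphocytes without antigen receptors that secrete type 2 cytokines, sorted from the mouse colon. All cells were cultured with 4 cytokines, of which IL-2 and IL-7 sustain lymphocytes and IL-25 and IL-33 activate ILC2s. The control group (n = 2 libraries) received no FK866, and the FK866 group (n = 2) was treated for 16 h with this small-molecule inhibitor of NAMPT, the enzyme that recycles nicotinamide into NAD+. The labels give no strain, age or sex, do not say whether control medium held the solvent of FK866, and do not say whether the replicates came from separate animals or cultures.

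GIMAP proteins share a GTPase domain called AIG1, and most of them sit on the membranes of intracellular compartments such as the endoplasmic reticulum, lysosomes and mitochondria. They are known mainly for their part in the survival and number of T and B lymphocytes: loss of GIMAP1 or GIMAP5 depletes peripheral T cells in mice or rats. GIMAP6 binds an autophagy protein of the ATG8 family, and members of the family have been linked to proteins of the BCL2 family that set the threshold for cell death. In T cells, transcripts of several members are abundant at rest and fall on activation.

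The libraries held 27617750 to 37841233 gene counts, of which the 8 genes together had between 15144 and 45398. FK866 replicate 2 stood apart in that 22461 gene IDs reached 10 counts there (17152 to 18667 elsewhere). Of 16 ILC2 marker genes, 15 averaged more than 10 CPM (the count relative to the TMM-scaled size of its library), led by the lineage regulators Gata3 (1082 and 947 CPM in the controls, 841.8 and 698.6 in FK866) and Id2 (936.9 and 1250 CPM, then 646 and 538). Of all tested genes, 2534 (13.2%) passed the edgeR quasi-likelihood test at an adjusted p under 0.05, 1020 of them (5.31%) higher and 1514 (7.89%) lower in FK866. Without FK866 replicate 2, 1411 genes were called, and without FK866 replicate 1, 1252. The lower genes were 59.8% of the 2534 calls from all 4 libraries. They were 48.8% of the calls with a stricter filter on low counts and 45.9% after a correction for transcript length and GC content.

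The cluster spans 123.6 kb of mm10 chromosome 6, from 48647234 to 48770851, and holds the genes in the order Gimap8, Gimap9, Gimap4, Gimap6, Gimap7, Gimap1, Gimap5 and Gimap3. Of these, 6 lie on the plus strand, and Gimap6 and Gimap3 lie on the minus strand. Each gene has its own annotated start site and its own promoter in RefSeq. Because the 8 transcripts were lower together but by unequal amounts, the 250 bases before the start site are shown for Gimap4 and Gimap3, among the genes with the largest falls, and for Gimap6, the gene with the smallest. They are from RefSeq on GRCm38.p6, 5′ to 3′ on the strand of the gene, at chr6:48684328-48684577 (plus strand), chr6:48770852-48771101 (minus strand) and chr6:48708245-48708494 (minus strand). Capitals mark matches, on either strand, to the motifs named after the sequences.

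Gimap4: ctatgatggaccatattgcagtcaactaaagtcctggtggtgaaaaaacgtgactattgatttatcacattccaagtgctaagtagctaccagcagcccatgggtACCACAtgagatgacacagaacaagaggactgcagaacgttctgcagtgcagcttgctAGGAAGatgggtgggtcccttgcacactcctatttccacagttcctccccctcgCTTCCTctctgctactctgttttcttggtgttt

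Gimap3: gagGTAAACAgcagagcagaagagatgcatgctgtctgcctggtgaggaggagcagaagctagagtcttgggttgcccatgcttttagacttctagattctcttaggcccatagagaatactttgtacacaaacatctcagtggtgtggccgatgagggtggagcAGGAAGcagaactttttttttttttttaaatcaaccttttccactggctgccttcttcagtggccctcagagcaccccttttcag

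Gimap6: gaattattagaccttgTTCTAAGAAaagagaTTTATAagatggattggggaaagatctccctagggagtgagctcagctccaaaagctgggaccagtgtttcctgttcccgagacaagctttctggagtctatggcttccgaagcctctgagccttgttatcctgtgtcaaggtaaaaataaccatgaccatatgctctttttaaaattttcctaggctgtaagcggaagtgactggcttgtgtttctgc

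All 8 genes matched a RefSeq entry, Gimap8 with a pair of start sites. AGGAAG, the letters searched for ETS factors, was present before a start site of 7 of the 8 genes, in all but Gimap6. It was present in 29.5% of 32851 mouse promoter windows of the same length. The Gimap6 window holds CGGAAG, which differs in its first base and was not searched, so a lack of ETS sites there is not shown. Gimap4 held AGGAAG at -87 and -33 from its start site, Gimap3 at -85 and Gimap5 at -45. The RUNX letters TGTGGT were present in Gimap1, Gimap4 and Gimap7, and in 14.0% of all windows. The FOXO letters GTAAACA were present in Gimap3 at -247, and in 3.17% of all windows. The STAT letters TTCNNNGAA were present in Gimap6 at -234 and in Gimap8 at -47, and in 7.02% of all windows. In Gimap8 they overlap the AGGAAG match at -48. The TATA letters TATAAA were present in Gimap6 alone, and in 12.4% of all windows. No window of the 8 genes held AGATAA, the letters searched for GATA factors (9.99% of all windows). The Gimap4 window holds TTATCA, which reads TGATAA on the other strand and differs in its first base. The Gimap1 window holds AGATAG, which differs in its last base. These forms were not searched, so a lack of GATA sites is not shown. None of the windows of the 8 genes held the E-box CACGTG, which 6.02% of all windows held. None held CCACACCC, the letters searched for KLF factors (3.2% of all windows). These matches are counts of letters and were not tested as binding sites.

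In the cultured ILC2s without FK866 the family was well expressed. Per kilobase of exon, a scale that allows genes to be compared, Gimap3 was highest in controls, with 164.8 and 139.9 CPM per kb in replicates 1 and 2, and stood above 98.1% of the tested genes. Gimap4 followed with 103.8 and 103.3 CPM per kb and Gimap1 with 69.8 and 65.7. Gimap6 (46.7 and 50.8) and Gimap9 (43.8 and 50.1) overlapped and had no order between them. Gimap5 was at 28.8 and 28.4, Gimap8 at 14.3 and 12.9, and Gimap7 was lowest at 5.27 and 6.45, above 67.5% of tested genes. With the length of the longest transcript in place of all exon bases, Gimap1 moved above Gimap4, with 21.3% against 17.5% of the family's summed level per kb.

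All 8 transcripts were lower in FK866. The summed level of the family was 1250 and 1192 CPM in the controls and 561.5 and 495.7 CPM in the FK866 libraries, a mean of 43.3% of the control level (1221 ± 40.4 against 528.6 ± 46.6 CPM, mean ± SD, n = 2). As a share of all gene counts, with no scaling between libraries, the family went from 0.12% in each control to 0.0548% and 0.0523%. For each of the 8 genes both FK866 libraries lay below both controls, as they did for 29.3% of all tested genes, and the lowest control was at least 1.33 times the highest FK866 library. The median log2 fold change of the members was -1.16, against 0.03 over all tested genes, and the members ranged from -1.85 to -0.51. All 8 members passed the threshold that 7.89% of all tested genes passed in this direction, a count fixed in part by how the family was chosen. Without FK866 replicate 2 the calls of Gimap6, Gimap8 and Gimap9 were lost and 5 members were called, and without FK866 replicate 1 those of Gimap6 and Gimap9 were lost and 6 were called. In bulk RNA, fewer cells expressing a gene and less RNA per cell cannot be told apart.

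**Figure D1:**
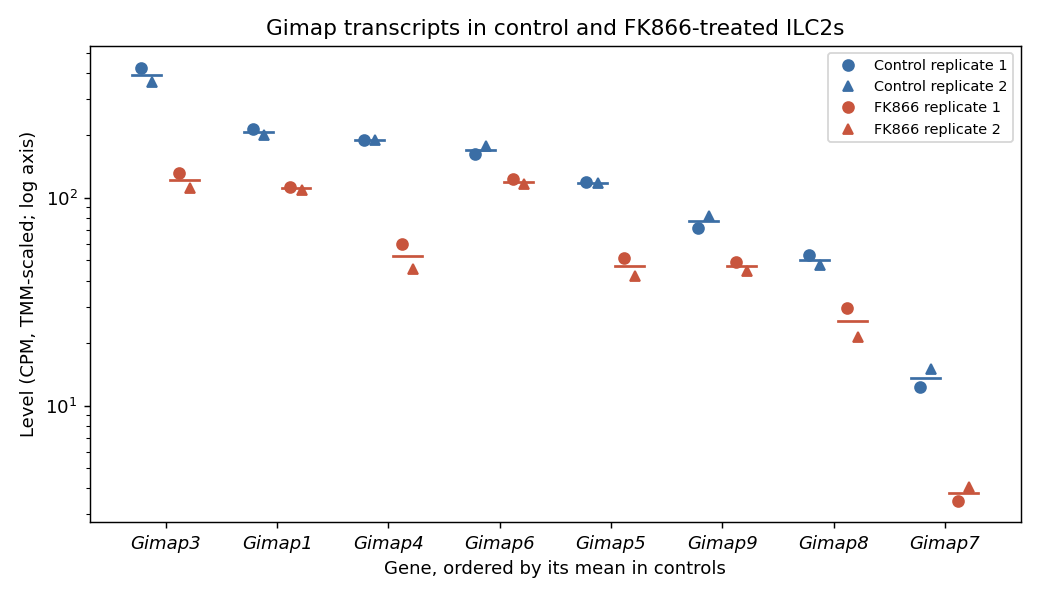
Levels of the 8 Gimap genes in each library, in CPM on a log axis; circles are replicate 1, triangles replicate 2 and bars the mean of each group (blue, control; red, FK866; n = 2 each). Every red point lies below both blue points of its gene, with the widest gaps for Gimap3, Gimap4 and Gimap7 and the narrowest for Gimap6.

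The largest falls were in Gimap4, Gimap7 and Gimap3. Gimap4, whose product has been studied as a modulator of T cell death (ENSMUSG00000054435, 48684549 to 48692060, 3 exon blocks), had 190.7 and 189.8 CPM in the controls and 59.8 and 45.7 CPM in FK866. The controls were nearly equal, and the FK866 libraries stood at 27.7% of their mean, a log2 fold change of -1.85 ± 0.16 (SE). Gimap7 encodes a GTPase that is activated by pairing with another molecule of its kind (ENSMUSG00000043931, 48718621 to 48724636). It was the least expressed member, with 445 and 489 counts in the controls and 94 and 138 in FK866. Its level went from 12.2 and 15 CPM to 3.49 and 4.06 CPM, a log2 fold change of -1.85 ± 0.27 (SE), the widest error in the family. Gimap3 (ENSMUSG00000039264, 48764464 to 48770851, 5 exon blocks) was the most abundant member in every control and had the largest difference in absolute level. It went from 424.7 and 360.5 CPM to 132.4 and 112.3 CPM, which is 31.2% of the control mean and a log2 fold change of -1.68 ± 0.15 (SE).

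Gimap5, the gene whose loss causes lymphopenia in rats and mice (ENSMUSG00000043505, 48746197 to 48754210), was intermediate. It had 119.5 and 117.8 CPM in the controls and 51.7 and 41.9 CPM in FK866, a log2 fold change of -1.34 ± 0.15 (SE). Gimap3 and Gimap5 are close relatives: their longest reading frames, 906 and 927 bases, shared 814 identical bases, 89.8% of the shorter one. The 20 other pairs that do not involve Gimap8 shared 53.9% to 67.2%. Of the 50-base windows in annotated Gimap3 transcripts, 7.52% also occur in Gimap5, and 4.53% of those of Gimap5 occur in Gimap3. The longest stretch without a difference is 140 bases, bases 175 to 314 of the Gimap3 reading frame (counted from its start codon) and 187 to 326 of that of Gimap5. It is printed here because reads from it cannot be assigned to either gene by sequence alone.

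Gimap3 and Gimap5 shared stretch: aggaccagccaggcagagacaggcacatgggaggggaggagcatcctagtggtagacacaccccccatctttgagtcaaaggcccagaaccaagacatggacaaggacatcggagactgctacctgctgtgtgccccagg

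How the counting program treated such reads is not given in the sources used here, so the levels of these 2 genes are partly uncertain. The count ratio of Gimap3 to Gimap5 was 3.55 and 3.06 in the controls and 2.56 and 2.68 in FK866, so the 2 groups did not overlap in this ratio.

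Gimap8, the longest member with several GTPase domains in a row (ENSMUSG00000064262, 48647234 to 48660875, 6 exon blocks, a reading frame of 2067 bases), had 53.0 and 47.7 CPM in the controls. In FK866 it had 29.5 and 21.5 CPM, a log2 fold change of -0.98 ± 0.19 (SE). Gimap1, which is needed for mature T and B cells to persist (ENSMUSG00000090019, 48739054 to 48743795), had 214.4 and 201.8 CPM in the controls and 112.8 and 109.4 CPM in FK866, a log2 fold change of -0.91 ± 0.13 (SE). Of its exon bases, 36.0% lie in exons of other genes, Gimap1os on the other strand and the readthrough gene Gm28053. With libraries that do not mark the strand, reads in those bases cannot be told apart. Gm28053 itself, which joins exons from Gimap7 to Gimap5, had 20 and 7 counts in the controls and 2 and 3 in FK866, too few to be tested.

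Gimap9 and Gimap6 had the smallest falls. Gimap9, a little-studied member (ENSMUSG00000051124, 48676129 to 48679114), had 71.9 and 82.2 CPM in the controls and 49.1 and 44.5 CPM in FK866, a log2 fold change of -0.72 ± 0.15 (SE). Gimap6, the member that binds an ATG8 protein (ENSMUSG00000047867, 48701582 to 48708225), had 163.1 and 177.5 CPM in the controls and 122.9 and 116.4 CPM in FK866. Its FK866 mean was 70.3% of the control mean, a log2 fold change of -0.51 ± 0.13 (SE). The longest transcripts of the family, 1269 to 3179 bases, are shorter than the median of 3468 bases for 9292 expressed protein-coding genes. After trends of the counts with length and GC content were taken out, which moved the median of all genes up by 0.11, Gimap9 was at -0.34 and Gimap1 at -0.60. Relative to all genes these values are -0.48 in place of -0.75 for Gimap9 and -0.73 in place of -0.93 for Gimap1, and Gimap9 was then the only member not called.

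Because the falls were unequal, the makeup of the family changed. Gimap3 held 34.0% and 30.2% of the family's counts in the controls and 23.6% and 22.7% in FK866. Gimap4 went from 15.3% and 15.9% to 10.6% and 9.21%. Gimap6 went the other way, from 13.1% and 14.9% to 21.9% and 23.5%, and Gimap1 from 17.2% and 16.9% to 20.1% and 22.1%. These shares need no scaling between libraries, and for each of the 8 genes the groups did not overlap, by the narrowest margin for Gimap8 (4.24% and 4% against 5.25% and 4.34%). The shares of a library add up to the whole, so they are not independent, and the family was chosen by its fold changes in these libraries. No matching figure over all genes was computed, so this count is a description only. The count ratio of Gimap3 to Gimap6 was 2.60 and 2.03 in the controls and 1.08 and 0.965 in FK866, and that of Gimap4 to Gimap6 fell from 1.17 and 1.07 to 0.486 and 0.392. The count ratios of Gimap4 to Gimap3 overlapped between groups, 0.449 and 0.527 against 0.451 and 0.407. In FK866 the order of levels per kilobase was led by Gimap3 (51.4 and 43.6 CPM per kb), Gimap1 (36.7 and 35.6) and Gimap6 (35.2 and 33.3), while Gimap4 (32.5 and 24.9) overlapped Gimap9 (29.9 and 27.1).

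**Figure D2:**
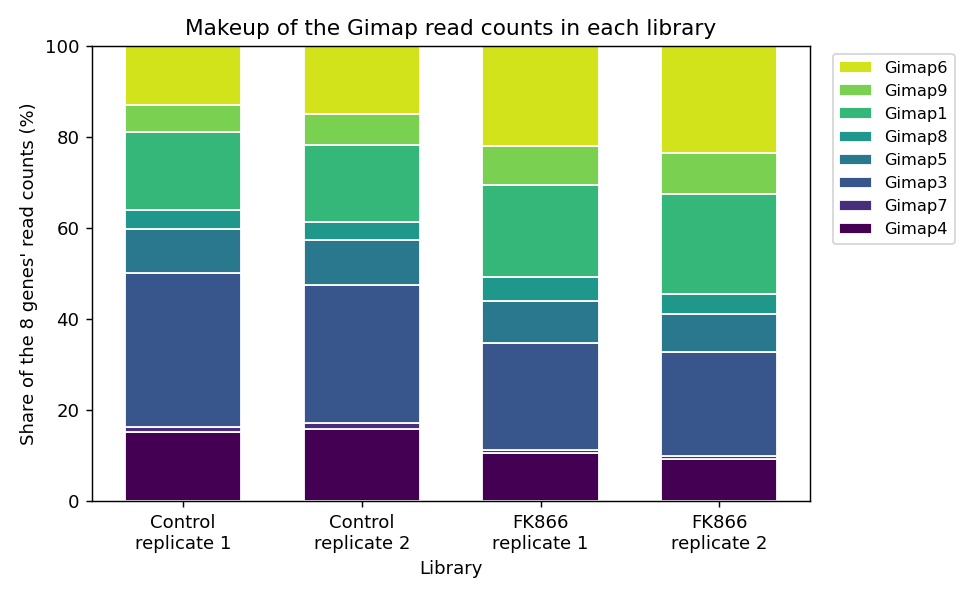
Share of the 8 genes' read counts held by each gene in each library, as stacked bars that sum to 100%. The segments of Gimap3 and Gimap4 are narrower and those of Gimap6 and Gimap1 wider in both FK866 libraries than in both controls.

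Agreement between replicates was close. Between the control libraries the members differed by at most 0.29 on the log2 CPM scale (Gimap7), and between the FK866 libraries by at most 0.45 (Gimap8). In the controls Gimap3, Gimap8 and Gimap1 were higher in replicate 1, by 0.24, 0.15 and 0.09, and Gimap5 and Gimap4 were nearly equal. Gimap6, Gimap7 and Gimap9 were lower in control replicate 1. In FK866 all but Gimap7 were higher in replicate 1, by 0.04 (Gimap1) to 0.45.

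The fall was next set against the other genes of the region, which took no part in the choice of the family. Of 52 other annotated genes within 500 kb of the cluster, 23 were tested, and of these 3 were lower and 1 was higher in FK866 (17.4% called, against 13.2% of all tested genes). Their median log2 fold change was -0.17. Inside the cluster 3 low-abundance noncoding genes were tested. Gimap1os, the transcript that runs antisense to Gimap1, fell from 2.23 and 3.96 CPM to 0.556 and 0.676 CPM (log2 fold change -2.31 ± 0.52, SE, edgeR adjusted p = 0.0228). Of its exon bases 35.7% overlap Gimap1 and Gm28053, and leaving out Control replicate 2 (adjusted p = 0.129) or FK866 replicate 1 (0.0742) ended its call. The long noncoding RNAs Gm44226 (log2 fold change -0.36) and 4833403J16Rik (-1.63, adjusted p = 0.177) did not pass.

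Outside the cluster 20 genes were tested, with a median log2 fold change of 0.03. On the side of Gimap8, the nearest tested gene was AI854703, 13.5 kb away, with 14.3 and 12.2 CPM in the controls and 9.94 and 7.21 CPM in FK866 (log2 fold change -0.63 ± 0.26, SE, edgeR adjusted p = 0.145), which did not pass. On the side of Gimap3 the nearest tested genes were Tmem176b and Tmem176a, at 63.0 and 70.1 kb, which encode paired membrane proteins of lymphoid and myeloid cells. Tmem176b fell from 423.9 and 419.3 CPM to 298.0 and 299.0 CPM (-0.50 ± 0.12, SE, edgeR adjusted p = 0.0278). Tmem176a fell from 192.8 and 205.2 CPM to 111.4 and 131.5 CPM (-0.71 ± 0.14, SE, edgeR adjusted p = 0.0136). Gpnmb, which encodes a transmembrane glycoprotein of lysosome-rich cells and lies 265.7 kb away, rose from 2.94 and 1.10 CPM to 13.3 and 14.8 CPM (2.79 ± 0.43, SE, edgeR adjusted p = 0.00587). Without FK866 replicate 1 the 3 lower calls of the region were lost and 1 gene, Gpnmb, was called. Tmem176b was also not called without FK866 replicate 2 (adjusted p = 0.132), with no filter on low counts (0.135) or after the length and GC correction (-0.19, adjusted p = 0.209).

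**Figure D3:**
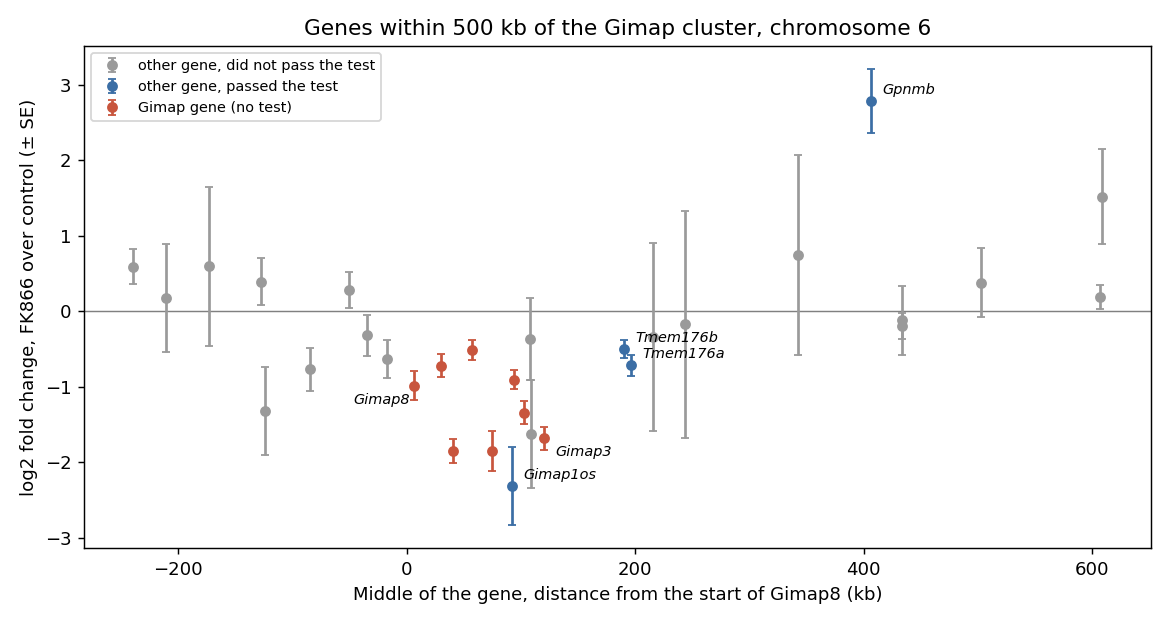
Log2 fold change (FK866 over control, ± SE) of each tested gene within 500 kb of the Gimap cluster, against the distance of its middle from the start of Gimap8 in kb. The 8 Gimap genes (red) lie between -1.85 and -0.51, and of the other genes 4 passed the test (blue), Gimap1os, Tmem176b and Tmem176a below 0 and Gpnmb above 0.

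Markers of other cells that express GIMAP genes were examined in the same libraries. T cells are rich in these transcripts, and the summed level of 12 T cell markers was 311.3 and 336.6 CPM in the controls and 248.8 and 280.8 CPM in FK866, with 0 of 11 tested markers called by edgeR (1 at an unadjusted p under 0.05, 1 by DESeq2). Of the 12, 3 averaged more than 10 CPM: the receptor constant-region genes Trbc2 (194.6 and 204.3 CPM in the controls, 162.3 and 177.2 in FK866) and Trbc1 (87.1 and 103 CPM, then 52.1 and 71.6), and the CD3 chain gene Cd3g (14.4 to 15.4 CPM over the 4 libraries). Cd247 was at 4.76 to 6.64 CPM, Cd6 at 2.55 to 6.6, Cd4 at 1.78 to 3.49 and Cd3e at 1.32 to 2.15. The lowest were Cd3d (0.44 to 0.92 CPM), Cd5 (0.0742 to 0.552), Trac (0.185 to 0.399), Cd8b1 (0 to 0.382) and Cd8a (0 to 0.118). The summed B cell markers went from 89.9 and 122.9 CPM to 61.5 and 77.6 CPM, led by Ighm and Cd79b, with 0 of 5 tested markers called by edgeR (3 at an unadjusted p under 0.05, 2 by DESeq2). Among 8 endothelial markers, whose cells also express GIMAP genes, Pecam1 had 142.3 to 224.6 CPM, Vwf 0.89 to 3 and Cdh5 0 to 0.46, and 0 of 6 tested were called by edgeR (0 at an unadjusted p under 0.05, 0 by DESeq2). Summed levels of NK cell and ILC1 markers were 8.05 to 12.5 CPM, led by Gzma and Prf1, and those of stromal markers 3.56 to 9.73 CPM, led by Lum and Dcn. Epithelial markers summed to 32.4 to 59.9 CPM, led by Epcam (25.1 to 54.1 CPM) and Lgals4 (2.18 to 4.16 CPM). Of these 8 markers only Epcam averaged more than 10 CPM, and Krt8 had no counts in any library. Myeloid markers summed to 4.93 to 14.7 CPM, led by Cd68 and Adgre1. Cd68 was called higher, with a log2 fold change of 1.41 (1.33 without FK866 replicate 1). The 6 ILC3 markers summed to 138.9 to 283.2 CPM, led by Il22, and 2 of them were called higher, among them Il17f. The ILC2 markers summed to 6168 and 6069 CPM in the controls and 5775 and 4796 CPM in FK866. Of these, Rora was called higher (log2 fold change 1.70), and Nmur1 (-1.18), Arg1 (-1.33), Il13 (-1.49) and Id2 (-0.89, edgeR adjusted p = 0.0111) were called lower. The part of these markers in the fall of the Gimap genes was not tested.

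Genes around the known biochemistry of the family moved in both directions. Of 11 tested genes of the BCL2 family, which controls mitochondrial cell death, 1 was higher and 5 were lower (median log2 fold change -0.46). The share called was 54.55%, against 13.2% of all tested genes. This list and those that follow were chosen with earlier results of these data known, so their shares are descriptions. The survival gene Bcl2l1, which encodes BCL-XL, fell from 306.3 and 230.5 CPM to 152.9 and 93.0 CPM (-1.13 ± 0.23, SE, edgeR adjusted p = 0.0172). Mcl1, another survival gene, fell by 0.77 (adjusted p = 0.0123) and the death-promoting gene Bad by 0.86 (adjusted p = 0.0161) on the log2 scale. The death-promoting genes Bid (-0.69, edgeR adjusted p = 0.034) and Bax (-0.64, edgeR adjusted p = 0.047) were also called lower. Bcl2l11, which encodes the death-promoting protein BIM, rose from 26.0 and 28.6 CPM to 168.7 and 180.9 CPM (2.68 ± 0.14, SE, edgeR adjusted p = 0.000125). Bcl2 itself, named for its place in the family and outside the naming rule, had 32.9 and 18.6 CPM in the controls and 24.7 and 12.8 CPM in FK866 and did not pass (-0.46, adjusted p = 0.445). Without FK866 replicate 2, 2 genes of the list were called, and neither Mcl1 (adjusted p = 0.0812) nor Bad (0.0659) was among them. After the length and GC correction 3 were called (Bcl2l11, Bcl2l1 and Mcl1), and Bad was not (-0.53, edgeR adjusted p = 0.0521). Bad was also not called without FK866 replicate 1 (-0.84).

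Of the 5 ATG8 genes, which encode the small proteins that decorate autophagy membranes, 1 was higher (20% called, against 13.2% of all tested genes). Gabarapl1 rose from 22.8 and 11.5 CPM to 77.1 and 35.7 CPM (1.72 ± 0.39, SE, edgeR adjusted p = 0.0245). That call was lost with DESeq2, without Control replicate 2 and without FK866 replicate 1. Gabarapl2, which encodes the reported partner of GIMAP6 and was named after its value was seen, had 65.9 and 70.6 CPM in the controls and 51.4 and 51.3 CPM in FK866 and did not pass (-0.41, adjusted p = 0.092).

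GIMAP5 has been linked to the kinase GSK3 and to growth signalling through mTORC1. Of 10 genes of those pathways, 1 was higher and 1 was lower. The share called, 20%, was near the 13.2% of all tested genes. Rictor, a subunit of mTORC2, rose from 93.5 and 99.6 CPM to 202.3 and 187.6 CPM (1.01, edgeR adjusted p = 0.00323). The kinase gene Akt1 fell from 148.4 and 86.5 CPM to 58.1 and 39.0 CPM (-1.27, adjusted p = 0.0185). Of 10 genes of lysosomes, calcium stores and vesicles, 0 passed edgeR's test, with 4 at an unadjusted p under 0.05, while DESeq2 called 3 and the stricter filter 4. The most abundant of them were Lamp1, a lysosomal membrane protein (log2 fold change 0.37, edgeR adjusted p = 0.0798), and the vesicle GTPase Rab7 (-0.09, adjusted p = 0.702).

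Genes typical of resting lymphocytes, the state in which several GIMAP transcripts are abundant in T cells, were partly higher. Of 18 such genes, 7 were higher and 0 lower in FK866, and the median of the list was 0.67 on the log2 scale. The share called was 38.9%, while 5.31% of all tested genes were called higher. As the list was chosen with earlier results of these data known, this contrast is a description only. Bach2, a transcriptional repressor, rose from 3.83 and 4.02 CPM to 31.7 and 20.7 CPM (2.74 ± 0.27, SE, edgeR adjusted p = 0.00121). The PI3K inhibitor gene Pik3ip1 rose by 1.88 (adjusted p = 0.00437), Tsc1, which restrains mTORC1, by 0.98 (adjusted p = 0.00779), and the chromatin organiser gene Satb1 by 1.22 (adjusted p = 0.0164). Without FK866 replicate 1, 4 genes of this list were called, all higher. Satb1 was not called without Control replicate 1 (adjusted p = 0.0513) or without FK866 replicate 2 (0.81, adjusted p = 0.0534).

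Other GTPase families of immunity were measured for comparison. In the IRG family (immunity-related GTPases induced by interferon) 6 of 7 tested genes were lower, with a median of -1.67 and values from -2.09 to -0.60. The share called was 85.7%, while 7.89% of all tested genes were called lower. Igtp fell from 194.5 and 195.2 CPM to 44.5 and 47.0 CPM (-2.09 ± 0.13, SE, edgeR adjusted p = 0.000257), followed by Tgtp2 (-2.05, adjusted p = 0.000973), Tgtp1 (-1.86, adjusted p = 0.00202) and Irgm2 (-1.68, adjusted p = 0.0023). Tgtp1 and Tgtp2 are near-identical copies whose reads may be split between them. The guanylate-binding proteins moved in both directions, with 3 of 11 lower and 2 higher (45.45% called, against 13.2% of all tested genes). Gbp2 fell by 1.61 (adjusted p = 0.00803), Gbp7 by 1.30 (adjusted p = 0.00453) and Gbp3 by 0.93 (adjusted p = 0.0239) on the log2 scale, and Gbp4 rose by 0.72 (adjusted p = 0.0209). Without FK866 replicate 1, 2 genes of the GBP list were called, without Gbp3 (adjusted p = 0.0979) and Gbp4 (0.137), and without Control replicate 2, 3 were called, without Gbp3 (0.0764). The Gimap genes, at -1.85 to -0.51, overlapped in range with both the IRG genes and the GBP genes (-1.61 to 0.72), and no test of a difference between the families was made.

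**Figure D4:**
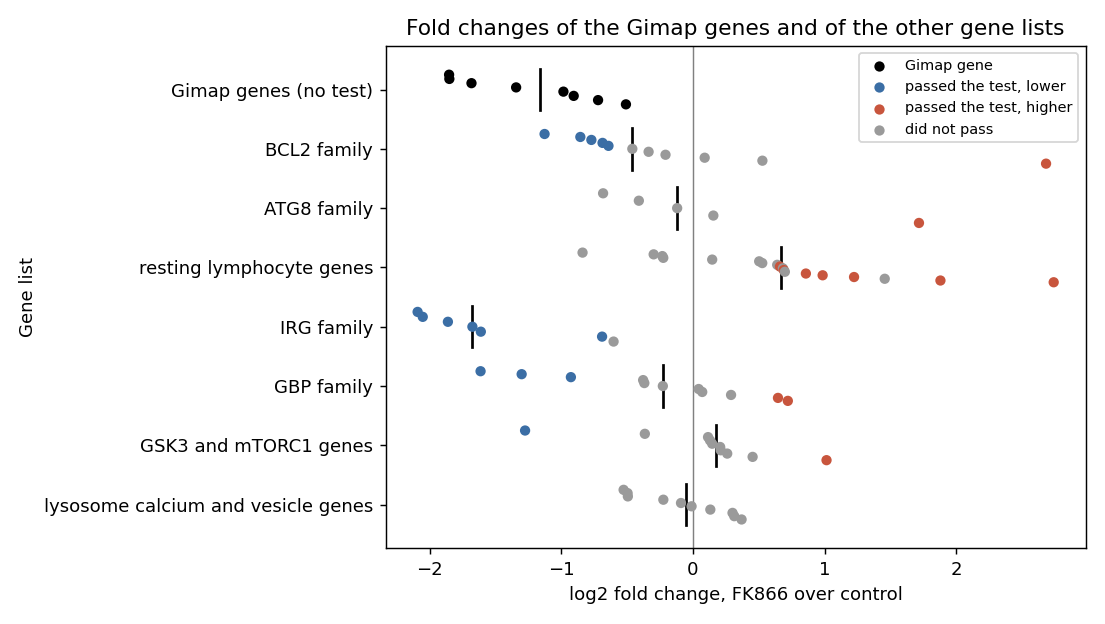
Log2 fold change (FK866 over control) of the Gimap genes (black) and of the tested genes of 7 other lists; each point is a gene, blue and red points passed the test lower and higher, and black bars are medians. All Gimap points lie below 0, as do all 7 IRG points, whereas the resting lymphocyte genes have a median of 0.67.

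The genes whose levels over the 4 libraries were most like the mean profile of the family were sought among 8631 others whose mean log2 CPM reached 3. The closest, by the root mean square difference of log2 CPM centred on each gene's mean, were 1700001L05Rik (0.0296), the RNA-binding protein gene Hnrnpm (0.0306), the immunoproteasome subunit gene Psmb10 (0.0384), Spryd4 (0.0417) and the cap-binding protein gene Ncbp2 (0.0435). Psmb10 went from 228.7 and 221.5 CPM to 97.3 and 91.2 CPM, and Hnrnpm from 670.4 and 662.3 CPM to 287.9 and 265.4 CPM. Of the members, Gimap5 was nearest to the mean profile (0.0737) and Gimap6 farthest (0.366), so each of these 5 genes lay closer to it than any member did. With 4 libraries in 2 groups, this likeness describes little beyond the size of the fall.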

How the data were processed

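Per the labels' protocols, the SMART-Seq HT kit gave full-length cDNA from TRIzol-purified RNA, and Nextera XT, a chemistry that does not mark the strand, gave the libraries. Per the submitters' processing notes, cutadapt 1.9, HISAT2 2.2.1 and build mm10 were used. The counting program and its handling of shared reads were not given in the sources used here. The authors deposited a table of raw counts for 4 libraries, with 1 row per Ensembl gene. Of 55487 IDs, 55141 matched a GENCODE M21 symbol (GRCm38, the same build). Total counts per library set the counting precision and are given in the report.

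The whole table was fitted with edgeR 4.0.16 (quasi-likelihood F test, two-sided, TMM scaling, treatment as the only term; R 4.3.3) after filterByExpr (minimum count 10, minimum total 15), with Benjamini-Hochberg adjustment over 19194 genes and a threshold of 0.05. Each SE is the absolute log2 fold change over the root of its F statistic. The procedure was tested on simulated data. Since no label separates the replicates by animal or culture, p-values reflect a spread that may be technical. Replicates of a group differed by more than counting noise (chi-square per degree of freedom 35.8 and 19.0). Alternatives were other scalings, DESeq2 1.42.0, other filters, a replicate block, removal of the length and GC trend, and each library left out.

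The members and lists were chosen with earlier results of these data known. Genes named are the members, called and nearest neighbours, up to 4 called genes of each list by adjusted p (the 2 most abundant where none passed), the 2 most abundant markers of each cell type and the 5 most similar profiles. Other genes of the lists and markers were named after their values were seen.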

Additional observations from a re-analysis of the deposited data

How the results depend on the processing

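The fold changes of all 8 Gimap genes stayed below 0 under each of the 11 alternatives run (10 for Gimap7), between -2.06 and -0.34. The median of the family was -0.91 with the stricter filter, which removes Gimap7 and leaves 7 members. The 8 members called became 7 with no filter (without Gimap6) and 7 after the length and GC correction (without Gimap9), and ranged from 5 to 8 as each library was left out. All tested genes called ranged from 1252 to 2519 as each library was left out. The labels' replicate numbers do not say what they pair; the deviations of same-numbered libraries correlated at 0.371 over 9701 genes, and with 2 pairs this is a hint from the data only. With the replicate block 5256 genes were called, among them all 8 members, 7 neighbours, 12 resting lymphocyte genes, 2 ATG8 genes, 4 GSK3 and mTORC1 genes and 4 lysosome, calcium and vesicle genes. As each library was left out, the genes called ranged from 1 to 4 for the neighbours, 2 to 6 for the BCL2 family, 0 to 1 for the ATG8 family, 4 to 7 for resting lymphocyte genes, 2 to 4 for the GBP family, 2 to 3 for the GSK3 and mTORC1 genes and 0 to 2 for the lysosome, calcium and vesicle list. After the length and GC correction, 3 BCL2 genes were called. DESeq2 called 0 ATG8 genes. In the lysosome, calcium and vesicle list, upper quartile scaling called 2 genes, library totals 2, DESeq2 3, the stricter filter 4 and the length and GC correction 5. With the longest transcript as length, the shares of the family's level per kb in controls became 21.3% for Gimap1 (14.5% with all exon bases), 17.5% for Gimap4 (22.2%), 8.43% for Gimap5 (6.12%), 8.86% for Gimap6 (10.4%), 1.78% for Gimap7 (1.25%) and 2.64% for Gimap8 (2.91%). Leaving out a library leaves 1 library in a group, whose spread is assumed to equal that of the other group. The causes of these shifts were not tested. Depth limits Gimap7, at 94 to 489 counts, more than the other members.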
